A study of Mus musculus with 10 samples.

Results

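Excitatory nuclei of the mouse hippocampus that carried RNA of both Foxp2 and Tle4 were examined by single-nucleus RNA sequencing. They numbered 196 among 15661 nuclei, and 2.27% of the 8635 nuclei that passed the excitatory gate (exact Clopper-Pearson 95% interval 1.97 to 2.61%, counting error only). The gate asked for at least 500 UMIs (unique molecular identifiers, each standing for 1 captured RNA molecule), at least 2 UMIs of Slc17a7, Sv2b and Arpp21 together, at most 1 of Gad1 and Gad2 and at most 1 of Dcn. A Foxp2/Tle4 nucleus then held at least 1 UMI of each gene and at least 4 of both together. That sum also had to exceed 3 others: Fn1, Nts and Tshz2 together, Rorb and Cux2 together, and Nectin3, Trps1, Cpne4, Ccbe1, Adamts9 and Iyd together. The values of these genes chose the nuclei and are given only as a description.

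All 10 samples were WT C57B/6J mouse hippocampus, from unstimulated mice of 4 to 7 months, so the series holds 1 group. Tissue was frozen, and nuclei were stained with 7AAD and sorted before about 5000 per sample were loaded for the droplet assay. The deposited matrix pools all samples in 7 barcode sets, and the labels do not say which sample a set came from. All nuclei were therefore treated as 1 sample: differences were not tested, carry no replicate check, and are given as ratios of Foxp2/Tle4 nuclei over another group with an exact Poisson 95% interval that covers counting error only. Levels are in CPM, the summed UMIs of a gene scaled to the summed UMIs of its group, and a gene is called higher or lower where the ratio was at least 2-fold. Levels are not scaled for gene length, so they are compared between groups and not between genes.

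In the mouse neocortex, Foxp2, a forkhead transcription factor, and Tle4, a corepressor of the Groucho family, mark layer 6 corticothalamic neurons, which send axons to the thalamus. Fezf2, a zinc finger transcription factor, directs the fate of deep-layer neurons that project out of the cortex. Related programmes run in layer 6b, the remnant of the subplate, and in the subiculum beside the hippocampus. Neither Foxp2 nor Tle4 belongs to 1 cell type alone, and both are transcribed in other neurons and in some glia.

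The median Foxp2/Tle4 nucleus held 2 UMIs of Foxp2, 4 of Tle4 and 8 of both together, with a range of 4 to 36 for the sum. Of the 196, 34 lay at the lower limit of 4, with 48 gate nuclei just outside it at a sum of 3. A further 376 nuclei had both genes and a sum of at least 4 but did not exceed one of the other gene sums, and 549 reached the sum with only 1 of the 2 genes. Each of these 2 groups was larger than the one the rule kept. Foxp2 lies on chromosome 6 (14901349 to 15441977, plus strand) and Tle4 on chromosome 19 (14448150 to 14598051, minus strand) of GRCm38, by GENCODE release M21.

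Fezf2, the one marker of the label that the rule did not use, did not set these nuclei apart. It stood at 11.1 CPM (23 UMIs) in Foxp2/Tle4 nuclei and 12.2 CPM in the other 8439 excitatory nuclei, a ratio of 0.91 (0.57 to 1.37). A UMI of Fezf2 was seen in 10.2% of Foxp2/Tle4 nuclei and 7.85% of other excitatory nuclei, against 0.363% of oligodendrocyte nuclei, which should lack it. Median depths were 9184.5, 6031 and 1783.5 UMIs in these 3 groups. After thinning to 2000 UMIs per nucleus the shares were 1.54% (3 of 195 nuclei, 0.318 to 4.43%) in Foxp2/Tle4 nuclei, 3.23% in other excitatory nuclei and 0.440% in oligodendrocyte nuclei, so the order of the first 2 turned. The 10 deep-layer corticothalamic or layer 6 markers outside the rule, summed, reached 5925 CPM in Foxp2/Tle4 nuclei and 2655 CPM in other excitatory nuclei. That sum was 9148 CPM in 106 of the 196, which fell in 1 cluster described below, and 2469 CPM in the other 90. Hs3st4, whose levels are given below, made up most of the sum in the 196 and in the 106. The sum thus speaks for few of the 10 markers and does not show that they moved together. The data therefore bear out the label in part only, and the nuclei are called Foxp2/Tle4 nuclei here.

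About 54% of the Foxp2/Tle4 nuclei gathered in 1 cluster, and the others were spread over 11 more. The gate nuclei were clustered without the genes of the rule, without every listed gene and with a random part of the remaining genes left out, an analysis added after the data had been seen. A single cluster of 391 nuclei held 106 of the 196 (54.1%, exact interval 46.8 to 61.2%), and 27.1% of its nuclei met the rule. Its leading genes by fold were Rai14, Dpp10, Cobll1, Cntnap4, Sulf1, Cdh18, Dlc1 and Col8a1, and it is called the Dpp10/Rai14 cluster below. Since a cluster is drawn from the same nuclei, its leading genes are a description of it.

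**Figure D1:**
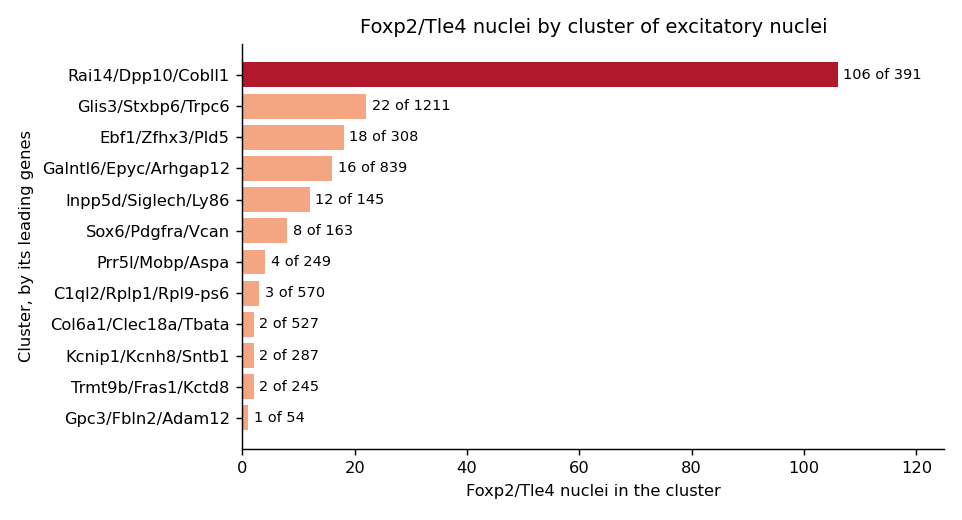
Foxp2/Tle4 nuclei in each of the 12 clusters of excitatory nuclei that held any, named by leading genes; bars give the number of Foxp2/Tle4 nuclei (horizontal axis) and the text the number of all nuclei in the cluster. The Rai14/Dpp10/Cobll1 cluster held 106, and no other cluster more than 22.

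The 90 Foxp2/Tle4 nuclei outside that cluster were spread over clusters led by other genes. In a cluster led by Glis3, Stxbp6, Trpc6 and Prox1 lay 22 of them, whose dentate granule markers summed to 4055 CPM, against 226 CPM in the Foxp2/Tle4 nuclei of the Dpp10/Rai14 cluster. In a cluster led by Galntl6, Epyc and Arhgap12 lay 16, whose CA1 pyramidal markers summed to 10140 CPM, against 3318 CPM in the Dpp10/Rai14 cluster. In a cluster led by Ebf1, Zfhx3 and Pld5 lay 18, and 16 of these came from barcode set 1. Further leading genes of that cluster were Btbd11, Ano1, Cacna2d2 and Erbb4. In the 18 nuclei the 7 inhibitory neuron markers outside the rule summed to 3262 CPM, with 1 marker at 0, against 236 CPM in the Foxp2/Tle4 nuclei of the Dpp10/Rai14 cluster and 834 CPM in other excitatory nuclei. Their deep-layer corticothalamic or layer 6 markers summed to 1069 CPM. These 3 clusters held 56 of the 90.

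Another 24 carried RNA typical of glia. In the cluster led by Inpp5d, Siglech and Ly86 lay 12, whose microglia markers summed to 2011 CPM and whose oligodendrocyte markers summed to 5795 CPM. In the cluster led by Sox6, Pdgfra and Vcan lay 8, whose precursor markers summed to 10280 CPM, and 4 lay in the cluster led by Prr5l, Mobp and Aspa. At least 10 UMIs of the oligodendrocyte markers were found in 20% of the Foxp2/Tle4 nuclei outside the Dpp10/Rai14 cluster, in 0 of the 106 inside it and in 5.82% of other excitatory nuclei. Inside that cluster Pdgfra, Cspg4, Sox10 and C1ql1, 4 of the 6 precursor markers, were at 0 UMIs, as was Ugt8a among the 9 oligodendrocyte markers. The 7 microglia markers summed to 140 CPM inside it, 531 CPM in the Foxp2/Tle4 nuclei outside it and 201 CPM in other excitatory nuclei. Doublet calling marked 4 of the 196 nuclei, and it marked under 0.5% of nuclei in barcode sets 2, 5 and 7, where it is not taken to have worked, so that mixed nuclei may remain. The part of glial RNA in the values of all 196 nuclei was not tested.

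The share of excitatory nuclei that met the rule differed between barcode sets. It was 1.74, 3.92, 3.41, 3.51, 1.11 and 0.355% in sets 1 to 6, which held 22, 64, 48, 38, 17 and 6 Foxp2/Tle4 nuclei. Set 7 held 1 of 24. Sets 2, 3 and 4 lay above the others with more than 24 gate nuclei, and their exact intervals did not overlap those of sets 5 and 6. Of the Foxp2/Tle4 nuclei in sets 1 to 6, 2, 44, 24, 17, 14 and 5 lay in the Dpp10/Rai14 cluster. Set 1 stood apart, with 2 of 22 there and only 4 nuclei of that cluster in all, against 40 to 117 nuclei in each of sets 2 to 6. Values without set 1 are given below where they differ.

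**Figure D2:**
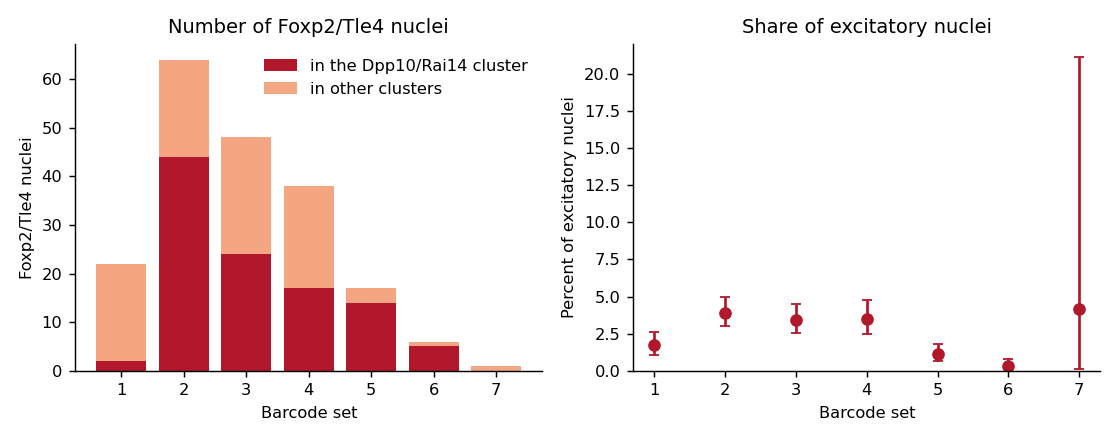
Left, the number of Foxp2/Tle4 nuclei in each barcode set, split into those in the Dpp10/Rai14 cluster (dark) and in other clusters (light). Right, their percentage of all excitatory nuclei of the set with exact 95% intervals; the share was highest in sets 2 to 4 among the sets with more than 24 excitatory nuclei.

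Depth moved with these shares. Median UMIs of other excitatory nuclei were 7338, 9709, 10040 and 10890 in sets 1 to 4, and 3089 and 2606 in sets 5 and 6. Within the Dpp10/Rai14 cluster, the rule took 8.70% of nuclei with 500 to 2500 UMIs, 20.3% of those below 5000, 27.5% of those below 10000, 48.9% of those below 20000 and 50.0% of those above, each bin starting where the one before it ended. When every nucleus was thinned to 2000 UMIs, 33 of 6858 gate nuclei met the rule (0.481%), and 26 of the 33 lay in the Dpp10/Rai14 cluster. Thinned shares were 0.332, 0.758, 0.352, 0.231, 0.790 and 0.243% in sets 1 to 6, so the order of the sets was not that of the unthinned shares. A nucleus with few UMIs can fail the rule for want of counts, and the share of 2.27% is tied to the depth of these libraries.

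**Figure D3:**
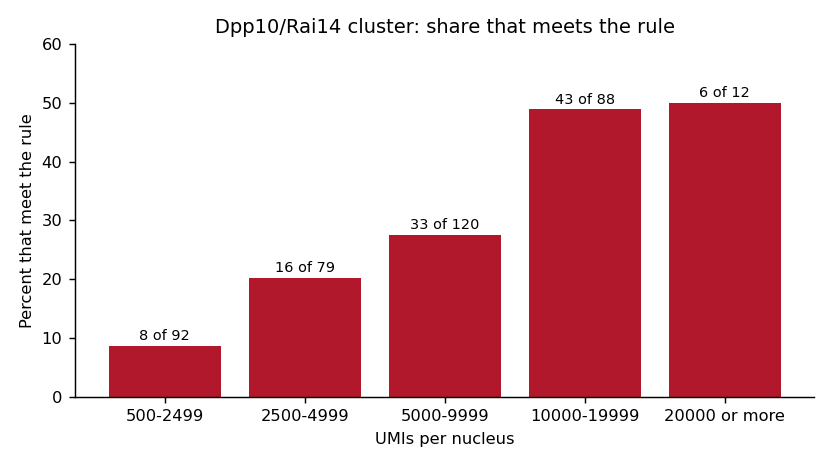
Percentage of nuclei in the Dpp10/Rai14 cluster that met the Foxp2/Tle4 rule (vertical axis) by UMIs per nucleus (horizontal axis); text gives the nuclei that met it of all in the bin. The share was 8.70% in the shallowest bin and 50.0% in the deepest, which held 12 nuclei.

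Layer 6 corticothalamic genes outside the rule were higher in part, mainly in the 106 nuclei of the Dpp10/Rai14 cluster. Of 16 that could be compared with other excitatory nuclei, 8 were at least 2-fold higher and none was 2-fold lower, against 3.11% of all 10581 compared genes higher and 2.56% lower. Their median log2 ratio was 0.91, against -0.01 over all genes. The 8 were Cdh18, Grik3, Tbr1, Garnl3, Hs3st4, Thsd7b, Rprm and Zfpm2. Ntsr1 was too low to compare in this set. The unscaled mean per nucleus, which keeps the greater depth of Foxp2/Tle4 nuclei, gave 831 higher and 87 lower genes in place of 329 and 271.

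Cdh18, a classical cadherin, reached 1970 CPM in Foxp2/Tle4 nuclei and 303 CPM in other excitatory nuclei, a ratio of 6.51 (6.29 to 6.73). In Foxp2/Tle4 nuclei of sets 1 to 6 it stood at 1580, 2810, 1280, 1840, 1280 and 1400 CPM, against 325, 365, 281, 274, 308 and 165 CPM in other excitatory nuclei. The ranges of these 6 sets did not overlap. After thinning, 76.9% of Foxp2/Tle4 nuclei and 30.7% of other excitatory nuclei had a UMI of Cdh18, against 15.8% of oligodendrocyte nuclei. The same share was 71.4% in the nuclei chosen by Cux2 and Rorb and 46.0% in those chosen by Fn1, Nts or Tshz2, both described further on. Its ratio was 1.93 (1.74 to 2.14) against the Cux2/Rorb nuclei, under 2-fold, and 3.9 (3.74 to 4.06) against the Fn1/Nts/Tshz2 nuclei.

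Hs3st4, which adds 3-O-sulfate to heparan sulfate, reached 3199 CPM in Foxp2/Tle4 nuclei and 1229 CPM in other excitatory nuclei, a ratio of 2.60 (2.54 to 2.67). By set it stood at 1040, 4460, 2670, 2910, 3130 and 3880 CPM in Foxp2/Tle4 nuclei of sets 1 to 6, against 923, 1400, 1230, 1430, 970 and 1050 CPM in other excitatory nuclei. Set 1 was close to its other excitatory nuclei, and the remaining 5 sets stood clear of theirs. The 106 nuclei of the Dpp10/Rai14 cluster carried 5269 CPM, the 90 outside it 980 CPM and other excitatory nuclei 1229 CPM. The higher level of Hs3st4 over all 196 thus rested on the 106 inside that cluster.

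The same division held for Grik3, a kainate receptor subunit, which reached 688 CPM inside the Dpp10/Rai14 cluster and 117 CPM in the Foxp2/Tle4 nuclei outside it, against 82.7 CPM in other excitatory nuclei. Its ratio over all 196 nuclei was 4.99 (4.64 to 5.36), but it was under 2-fold against the Fn1/Nts/Tshz2 nuclei. Garnl3, a Rap GTPase-activating protein family member, reached 512 CPM inside the cluster, 129 CPM in the Foxp2/Tle4 nuclei outside it and 101 CPM in other excitatory nuclei. Tbr1, the T-box factor that specifies layer 6 neurons, rested on 38 UMIs and reached 27.9 CPM inside, 7.99 CPM outside and 5.09 CPM in other excitatory nuclei. Its ratio over all 196 was 3.6 (2.50 to 5.04). Thsd7b had a ratio of 2.33 (2.21 to 2.44) that was 1.63 without barcode set 2, and Rprm, with 21 UMIs, had 2.19 (1.33 to 3.4) that was 1.43 without set 2, 1.96 without set 3 and 4.52 without set 1. Over the 90 nuclei outside the cluster the list's median log2 ratio against other excitatory nuclei was 0.09.

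Set against the 8154 excitatory nuclei outside the Dpp10/Rai14 cluster, its 106 Foxp2/Tle4 nuclei had 11 of 17 layer 6 corticothalamic genes at least 2-fold higher and 1 lower. The background of this comparison was 4.66% of 10346 genes higher and 11.1% lower, and the medians of log2 ratios were 1.40 for the list and -0.11 for all genes. Cdh18 was 13.1-fold higher (12.6 to 13.6), Grik3 9.85-fold (9.10 to 10.7), Tbr1 6.00-fold (3.98 to 8.74), Garnl3 5.59-fold (5.11 to 6.10) and Hs3st4 4.58-fold (4.46 to 4.71). Ntsr1, the neurotensin receptor whose promoter drives widely used corticothalamic Cre lines, was 3.83-fold higher on 10 UMIs (1.80 to 7.24), and 2.31-fold without set 2. Among the 11, Rprm had a ratio of 2.64, but 1.57 without set 2 and 5.92 without set 1, Syt6 had 2.07, but 1.63 without set 4 and 3.75 without set 2, and Sox5 had 2.07, but 1.88 without set 1. The lower gene was the channel gene Trpm3, at 427 CPM inside and 1107 CPM outside, 2.60-fold lower. On unscaled means, 917 genes were higher and 747 lower in place of 482 and 1153.

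The 285 nuclei of the Dpp10/Rai14 cluster that did not meet the rule had levels near those of its 106 Foxp2/Tle4 nuclei. Cdh18 stood at 3223 CPM in the 106 and 2471 CPM in the 285, Grik3 at 688 and 574 CPM, Garnl3 at 512 and 451 CPM, and Hs3st4 at 5269 and 4253 CPM. Fezf2 was the other way, at 13.0 CPM in the 106 and 27.5 CPM in the 285. Median depth was 9482 UMIs in the 106 and 4793 UMIs in the 285. The part of depth in these differences was not tested.

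**Figure D4:**
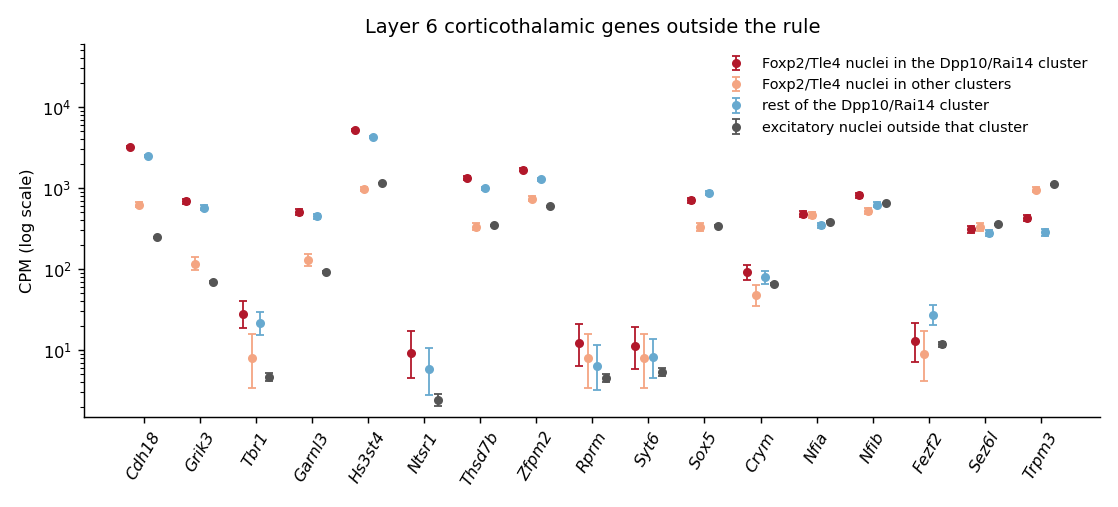
CPM on a log scale with exact Poisson 95% intervals for 17 layer 6 corticothalamic genes outside the rule, in Foxp2/Tle4 nuclei of the Dpp10/Rai14 cluster, Foxp2/Tle4 nuclei of other clusters, the rest of that cluster and the excitatory nuclei outside it; a group at 0 UMIs (Ntsr1 in other clusters) has no point. For Cdh18, Grik3, Garnl3, Hs3st4, Thsd7b and Zfpm2 both groups of the Dpp10/Rai14 cluster stand above both groups outside it.

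Of the layer 6b genes, 3 of 7 compared were at least 2-fold higher than in other excitatory nuclei, beside 3.11% of all genes. Another 4 lay between and none was lower, and the list's median log2 ratio was 0.99. The calls of 2 of the 3 were lost without 1 barcode set. Drd1, the D1 dopamine receptor, had 20 UMIs and 9.64 CPM in Foxp2/Tle4 nuclei, against 0.893 CPM in other excitatory nuclei, a ratio of 10.8 (6.16 to 18.2). Pappa2, a protease of insulin-like growth factor binding proteins, had a ratio of 2.60 (1.94 to 3.42), but 1.46 without barcode set 2. Svil had 2.07 (1.61 to 2.62), but 1.26 without set 4 and 1.96 without set 1. Of further layer 6b genes in the Dpp10/Rai14 Foxp2/Tle4 nuclei, Ccn2 had 10 UMIs, Cplx3 9, Nxph4 2 and Trh none.

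Within the Dpp10/Rai14 cluster, Ccn2 and Cplx3 UMIs were found in 5.66% of Foxp2/Tle4 nuclei each. Ccn2, a secreted matrix protein, stood at 9.31 CPM in the 106 Foxp2/Tle4 nuclei and 25.7 CPM in the other 285 nuclei of that cluster. Moxd1 stood at 12.1 and 33.9 CPM and the orexin receptor gene Hcrtr2 at 32.6 and 98.2 CPM in the 106 and the 285. After thinning, the share of nuclei with a UMI was 2.86% in the 106 and 11.9% in the 285 for Hcrtr2, 3.81 and 5.93% for Ccn2, and 4.76 and 4.24% for Moxd1. The exact intervals overlapped for each of the 3, and Moxd1 did not keep the direction of its CPM. Against excitatory nuclei outside the cluster, 6 of 7 layer 6b genes were at least 2-fold higher in the 106, beside 4.66% of all genes. Of the 6, Hcrtr2 had a ratio of 1.48 without barcode set 3 and Svil 1.0 without set 4 and 4.01 without set 2. Another of the 6, Nr4a2, had 3.34, and 2.0 without set 2.

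Against other excitatory nuclei, layer 5 extratelencephalic and near-projecting genes did not share this pattern, and intratelencephalic genes held higher and lower members. Over all compared genes 3.11% were higher and 2.56% lower. None of 6 layer 5 extratelencephalic genes was 2-fold higher and 2 were lower, Pou3f1 at 4.82 CPM against 15.8 CPM and Bcl6 at 11.6 CPM in Foxp2/Tle4 nuclei against 35.9 CPM in other excitatory nuclei. Of 4 near-projecting genes 0 were higher and Vwc2l was lower, at 60.2 CPM in Foxp2/Tle4 nuclei against 151 CPM. Of 11 intratelencephalic genes 2 were higher and 1 lower. The higher ones were Deptor, an inhibitor of the mTOR kinase, with a ratio of 3.78 (3.17 to 4.48), and Sulf1, described with the heparan sulfate genes. The lower one was Lamp5, on 8 UMIs, with a ratio of 0.312 and of 0.172 without barcode set 2.

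Of 36 transcription factors of cortical projection neurons compared, 2 were at least 2-fold higher, Tbr1 and Zfpm2, beside 3.11% of all genes. Pou3f1, Lhx2, Bhlhe22 and Dach1, 4 of the 36, were lower, beside 2.56% of all genes, on 8 to 38 UMIs in Foxp2/Tle4 nuclei. Zfpm2, a GATA cofactor also known as Fog2, was close to the limit, at 1230 CPM in Foxp2/Tle4 nuclei against 611 CPM, a ratio of 2.01 (1.94 to 2.10) that was 1.90 as the median over barcode sets. The median of the 36 log2 ratios was -0.13. Among 6 other Foxp and Groucho genes none was 2-fold changed over all 196 nuclei, and none of 8 genes reported as FOXP2 targets was. In the 106 nuclei of the Dpp10/Rai14 cluster Tle1, another Groucho corepressor, stood at 6.52 CPM against 100 CPM in excitatory nuclei outside it, 15.4-fold lower (ratio 0.065, 0.026 to 0.134). Of 5 Foxp and Groucho genes compared there it was the only 1 past 2-fold, where 11.1% of all genes were lower.

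Receptors for glutamate differed gene by gene. Among ionotropic receptor genes, Grik3 was higher, as given above, and none of the 18 compared was 2-fold lower. Against the Fn1/Nts/Tshz2 nuclei none of 18, Grik3 included, was 2-fold higher and 1 was lower. Against the Cux2/Rorb nuclei 2 of 18 were higher and none lower. Of 7 metabotropic receptor genes Grm3 and Grm8 were higher than in other excitatory nuclei, with ratios of 3.20 (3.01 to 3.41) and 2.29 (2.17 to 2.41). Neither was 2-fold higher against the Cux2/Rorb nuclei, where none of 7 was higher and 2 were lower. Against the Fn1/Nts/Tshz2 nuclei 1 of 7 was higher and 2 were lower. Grm3 stood at 773 CPM in Foxp2/Tle4 nuclei of the Dpp10/Rai14 cluster, 292 CPM in those outside it and 169 CPM in other excitatory nuclei, but also at 2100 CPM in oligodendrocyte nuclei. Grm8 stood at 1109, 344 and 323 CPM in the same 3 neuronal groups and at 42.8 CPM in oligodendrocyte nuclei. In the Dpp10/Rai14 cluster Gria1, an AMPA receptor subunit, was 3.34-fold lower and Grin2a, an NMDA receptor subunit, 2.91-fold lower than in excitatory nuclei outside it, whereas over all 196 nuclei neither passed 2-fold. None of 14 GABA receptor genes passed 2-fold over the 196.

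Neuromodulator receptors held 5 higher and 1 lower gene of 21, with a median log2 ratio of 0.27, beside 3.11% of all genes higher and 2.56% lower. The lower one was the serotonin receptor gene Htr7, with a ratio of 0.145 without barcode set 1, 0.577 without set 2, 0.672 without set 3 and 0.579 without set 4. Oprm1, the mu opioid receptor, reached 444 CPM in Foxp2/Tle4 nuclei and 100 CPM in other excitatory nuclei, a ratio of 4.43 (4.14 to 4.75). By set it stood at 158, 590, 375, 463, 228 and 337 CPM in Foxp2/Tle4 nuclei of sets 1 to 6, against 44.3, 136, 131, 105, 55.4 and 34.6 CPM in other excitatory nuclei. The Foxp2/Tle4 value was above its own set's value in all 6 sets. Oprm1 overlaps Ipcef1, itself 4.72-fold higher (4.21 to 5.27), on the opposite strand, and the labels do not say whether reads were counted by strand.

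The other 4 higher receptor genes were Drd1 and the serotonin receptor genes Htr1b, Htr1f and Htr2a. Htr1f had a ratio of 2.34 (2.18 to 2.51), with 695 CPM in Foxp2/Tle4 nuclei of the Dpp10/Rai14 cluster, 95.9 CPM in those outside it and 174 CPM in other excitatory nuclei. Without barcode set 2 the ratio was 1.70 for Htr1f and 1.47 for Htr1b, which rested on 25 UMIs. Htr2a had 2.31 (1.80 to 2.92). In the Dpp10/Rai14 cluster 10 of 23 receptor genes were higher and 5 lower than in excitatory nuclei outside it. Over all genes of this comparison 4.66% were higher and 11.1% lower. The muscarinic receptor gene Chrm2 was 2.95-fold higher and the serotonin receptor gene Htr4 5.04-fold lower.

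Potassium channel genes held 1 higher and 1 lower gene of 36. These counts are near the shares over all genes, 3.11% higher and 2.56% lower. The lower gene was Kcnc2, with a ratio of 0.615 without barcode set 2. The higher one was Dpp10, an auxiliary subunit that traffics Kv4 channels to the membrane, on chromosome 1 (123321471 to 124045559, minus strand). It reached 11850 CPM in Foxp2/Tle4 nuclei and 1664 CPM in other excitatory nuclei, a ratio of 7.12 (7.02 to 7.22). By set it stood at 5430, 14300, 11200, 11700, 12400 and 17400 CPM in Foxp2/Tle4 nuclei of sets 1 to 6, against 437, 2120, 1970, 1490, 2620 and 1220 CPM in other excitatory nuclei. The ranges of these 6 sets did not overlap, and within the Dpp10/Rai14 cluster every thinned nucleus, 105 of 105, had a UMI of it, against 40.0% of the Foxp2/Tle4 nuclei outside and 13.8% of oligodendrocyte nuclei. Dpp10 was not particular to the nuclei that met the rule. A UMI of it was also found in 236 of 236 thinned nuclei of that cluster that did not meet it, in 63.3% of Cux2/Rorb nuclei and in 76.0% of Fn1/Nts/Tshz2 nuclei, against 72.3% of all Foxp2/Tle4 nuclei. Its ratio was 1.19 (1.15 to 1.23) against the Cux2/Rorb nuclei and 2.29 (2.25 to 2.32) against the Fn1/Nts/Tshz2 nuclei. In that cluster Kcnip4 and Kcnd2, another auxiliary subunit and a pore subunit of Kv4 channels, were 5.74-fold and 2.84-fold lower than in excitatory nuclei outside it. Kcnip3, also an auxiliary subunit, went the other way, with a ratio of 2.21 that was 1.99 without barcode set 1. Of 36 potassium channel genes in this comparison 5 were higher and 10 lower, beside 4.66 and 11.1% of all genes.

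**Figure D5:**
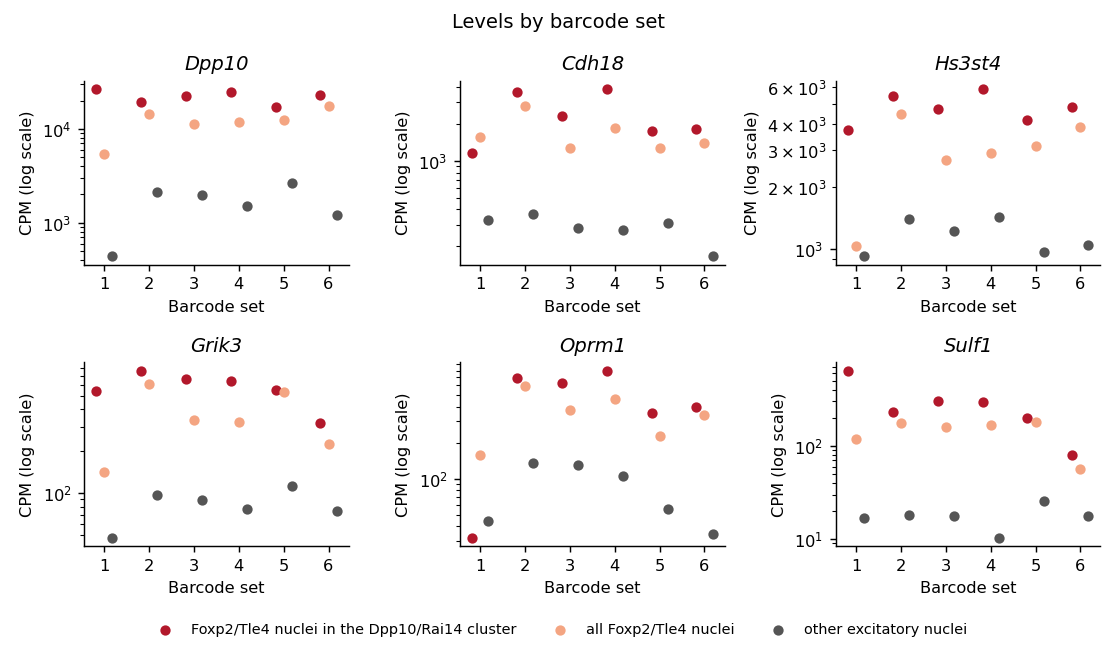
CPM on a log scale (vertical axis) of Dpp10, Cdh18, Hs3st4, Grik3, Oprm1 and Sulf1 in barcode sets 1 to 6 (horizontal axis), for Foxp2/Tle4 nuclei of the Dpp10/Rai14 cluster, all Foxp2/Tle4 nuclei and other excitatory nuclei. All Foxp2/Tle4 nuclei stand above other excitatory nuclei in each set for each gene, least for Hs3st4 in set 1. Set 1 has only 2 nuclei behind the first group. Set 6 has only 6 Foxp2/Tle4 nuclei in all, and its Sulf1 value rests on very few molecules.

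Over all compared genes 3.11% were higher and 2.56% lower than in other excitatory nuclei. Sodium, calcium and HCN channel genes were close to those of other excitatory nuclei, with 0 of 22 higher and 1 lower. The lower one, Ryr1 on 20 UMIs, had a ratio of 0.407, and of 0.553 without barcode set 4. Synaptic release genes held 1 higher, Syt10, with a ratio of 1.85 without barcode set 2, and 1 lower, Vamp1, of 29. These counts are near the shares over all genes. Synaptic adhesion genes held 3 higher and 2 lower of 37, the lower ones being Cntnap5c and C1ql3, whose ratio was 0.533 without set 1 and 0.502 without set 2. Cntnap4, a neurexin family member, reached 436 CPM in Foxp2/Tle4 nuclei and 64.6 CPM in other excitatory nuclei, a ratio of 6.75 (6.28 to 7.25), and Lrrtm3, a neurexin ligand, had 3.0 (2.85 to 3.17). Lrrtm3 also stood at 692 CPM in oligodendrocyte nuclei. The third, Nxph1, had 2.31 (2.06 to 2.59) over all 196 but only 7.45 CPM in the Dpp10/Rai14 cluster, against 307 CPM in the Foxp2/Tle4 nuclei outside it. Against the Cux2/Rorb nuclei 1 of 36 adhesion genes was higher and 5 lower, beside 6.82 and 7.05% of all genes. No log2 ratio of an adhesion gene there exceeded 1.03. Against the Fn1/Nts/Tshz2 nuclei 4 of 38 were higher and 4 lower, beside 3.73 and 3.49% of all genes. There no log2 ratio of an adhesion gene exceeded 1.19. Both limits hold for Cntnap4. Against other excitatory nuclei Cdh18 was the only higher one of 13 cadherins, while Cdh8 and Cdh12 were 2.43-fold and 2.67-fold lower.

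Of 26 genes listed for corticothalamic axon guidance none was 2-fold higher, beside 3.11% of all genes, and 5 were lower, beside 2.56%. Their median log2 ratio was -0.37. The 5 were Ntng2, Epha6, Epha4, Dcc and Slit3, which encode a netrin-G, 2 ephrin receptors, the netrin receptor and a slit ligand. Epha6 stood at 1505 CPM in Foxp2/Tle4 nuclei against 3646 CPM in other excitatory nuclei, 2.42-fold lower. Inside the Dpp10/Rai14 cluster it stood at 353 CPM against 3729 CPM, 10.6-fold lower, and Slit3 was 8.94-fold lower, Epha4 8.17-fold and Ntng2 16.2-fold. Of 26 guidance genes in that comparison 2 were higher and 10 lower, beside 4.66 and 11.1% of all genes. The highest log2 ratio among them was 1.41. Over the 196 the 2-fold call of Slit3 was lost without barcode set 2, at a ratio of 0.526.

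Enzymes that build and edit heparan sulfate held 4 higher and 2 lower of 18, with a median log2 ratio of 0.23. Over all compared genes 3.11% were higher and 2.56% lower. Beside Hs3st4, the 3-O-sulfotransferase genes Hs3st2 and Hs3st5 were higher, with ratios of 4.73 (4.16 to 5.37) and 7.68 (6.92 to 8.51). Sulf1, an extracellular enzyme that removes 6-O-sulfate, had a ratio of 9.48 (8.36 to 10.7). Against the Cux2/Rorb nuclei only 2 of 17 of these enzyme genes were 2-fold higher and none lower, beside 6.82 and 7.05% of all genes. The highest log2 ratio there, Sulf1 and Hs3st5 included, was 1.48. Against the Fn1/Nts/Tshz2 nuclei 4 of 18 were higher and 3 lower, beside 3.73 and 3.49% of all genes. By set Sulf1 stood at 117, 175, 158, 166, 182 and 56.2 CPM in Foxp2/Tle4 nuclei of sets 1 to 6, against 17.0, 18.1, 17.6, 10.3, 25.7 and 17.6 CPM in other excitatory nuclei. The ranges did not overlap, but the 6 Foxp2/Tle4 nuclei of set 6 held only 17805 UMIs in all. The value of set 6 thus rests on very few Sulf1 molecules and carries little weight. Hs6st3, a 6-O-sulfotransferase, was 2.63-fold lower, and Ndst2 was 2.19-fold lower on 9 UMIs, at a ratio of 0.456 and of 0.503 without barcode set 2. In the Dpp10/Rai14 cluster Hs6st3 was 9.37-fold lower than in excitatory nuclei outside it, and Ndst4, an N-deacetylase and N-sulfotransferase, had 2 UMIs and 1.86 CPM against 269 CPM, a ratio of 0.0069 (0.00084 to 0.025), and 0.0123 without barcode set 2. Of 18 enzyme genes in that comparison 5 were higher and 5 lower, beside 4.66 and 11.1% of all genes.

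Other lists moved little or rested on few molecules. Over all compared genes 3.11% were higher and 2.56% lower than in other excitatory nuclei. Of 6 neuropeptide precursors compared, Tac1 was higher and Bdnf and Cck, listed with them, were lower. Tac1 had a ratio of 4.60 (2.87 to 7.07) on 24 UMIs, but 1.36 without barcode set 1, and 0.931 CPM in the Dpp10/Rai14 Foxp2/Tle4 nuclei against 23.0 CPM in those outside. Of 13 immediate early genes 0 were higher and 4 lower (Arc, Nr4a3, Fosl2 and Bdnf, on 7 to 42 UMIs), with a median log2 ratio of -0.77. Single sets decided these calls: the ratio was 0.537 for Cck and 0.507 for Nr4a3 without set 1, 0.585 for Bdnf and 0.521 for Nr4a3 without set 2, and 0.521 for Fosl2 without set 4, while that of Arc was 0.292, and 0.471 without set 1. None of 7 stress genes and none of 16 H3K4 methyltransferases and partners passed 2-fold.

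Among all compared genes, the 12 named as highest against other excitatory nuclei were Sulf1, Dpp10, Rai14, Hs3st5, Cdh18, Cntnap4, Cobll1, Dlc1, Grik3, Tg, Ipcef1 and Oprm1. Dlc1 reached 780 CPM in Foxp2/Tle4 nuclei against 156 CPM, a ratio of 5.0 (4.74 to 5.27). Rai14, which binds actin, had 8.74 (7.64 to 9.98) and Cobll1 7.08 (6.31 to 7.93). Cobll1 stood at 348 CPM in oligodendrocyte nuclei, against 290 CPM in the Dpp10/Rai14 Foxp2/Tle4 nuclei. Tg, the thyroglobulin gene, had 90 UMIs and a ratio of 7.67 (6.02 to 9.67), and overlaps Sla on the other strand.

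The 8 named as lowest were Pdzrn3, Col23a1, Pde11a, Clmp, Rnf182, Il16, Tspan18 and Palmd. Pdzrn3, a ubiquitin ligase with PDZ domains, stood at 12.1 CPM in Foxp2/Tle4 nuclei against 87.6 CPM, 7.27-fold lower. By set it ran between 0 and 20.3 CPM in Foxp2/Tle4 nuclei of sets 1 to 6 and between 22.6 and 154 CPM in other excitatory nuclei. Col23a1, a transmembrane collagen, was 4.64-fold lower, and Pde11a, a phosphodiesterase of cAMP and cGMP, 4.18-fold lower. Col23a1 had a ratio of 0.215, and 0.137 without barcode set 3.

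Against 52 nuclei chosen by Cux2 and Rorb, 645 of 9462 compared genes were at least 2-fold higher in Foxp2/Tle4 nuclei (6.82%) and 667 lower (7.05%), or 1458 and 223 on unscaled means. Here 4 of 16 layer 6 corticothalamic genes were higher and 2 lower, with a median log2 ratio of 0.53 against -0.08 over all genes. The list did not stand apart from others. Intratelencephalic genes had 3 of 10 higher and 2 lower, with a median of 0.39. Transcription factors of cortical projection neurons had 9 of 32 higher and 1 lower, with a median of 0.46. The genes named by rule did not single out deep-layer genes. Prr5l, an oligodendrocyte marker, had 184 UMIs in Foxp2/Tle4 nuclei and none in the 52. Its ratio was 11.9 when 3 UMIs are set for the 52 nuclei together, and the exact lower limit was 9.61. Prr5l stood at 183 CPM in Foxp2/Tle4 nuclei outside the Dpp10/Rai14 cluster and 0.931 CPM inside it, so its difference did not come from the nuclei of that cluster. Ebf1, a helix-loop-helix factor, was 45.5-fold lower, at 3.37 CPM against 154 CPM in the Cux2/Rorb nuclei. Its ratio was 0.022, and 0.0076 without barcode set 1 and 0.178 without set 3. Cngb3, at a ratio of 0.066, had 0.958 without set 1 and 0.0391 without set 2. No barcode set held 20 nuclei on both sides, so these ratios rest on pooled sets.

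Against 1626 nuclei chosen by Fn1, Nts or Tshz2, a group that holds subicular-type nuclei, 395 of 10589 genes were higher in Foxp2/Tle4 nuclei (3.73%) and 370 lower (3.49%), or 1440 and 132 on unscaled means. Of 16 layer 6 corticothalamic genes 7 were higher and 1 lower, with a median log2 ratio of 1.0. Nfia, a nuclear factor I gene, reached 471 CPM in Foxp2/Tle4 nuclei against 74.6 CPM, a ratio of 6.32 (5.76 to 6.93). Sulf1 had 6.25 (5.33 to 7.33). Glis3 had 11.2 (9.10 to 13.7), with 271 CPM in Foxp2/Tle4 nuclei outside the Dpp10/Rai14 cluster and 15.8 CPM inside it. Bmpr1b, a bone morphogenetic protein receptor, had 18.2 (12.7 to 26.7), and 10.1 without barcode set 4.

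Pdzrn3 was 34.4-fold lower than in the Fn1/Nts/Tshz2 nuclei, at 12.1 CPM against 414 CPM. Vwc2l, a near-projecting marker, was 12.3-fold lower, Gpc6, a glypican, 8.68-fold lower and the HMG-box factor gene Tox 8.29-fold lower. Near-projecting genes as a list had 0 higher and 2 lower of 4, beside 3.73 and 3.49% of all genes. Layer 5 extratelencephalic genes had 0 higher and 3 lower of 6. The other members of these 2 lists did not pass 2-fold.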

How the data were processed

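Nuclei of WT mouse hippocampus were sequenced with 10X Chromium 3' v3.1 chemistry, and Cell Ranger 4.0.0 and the builds mm10 and GRCm38 are named in the submitters' processing notes. The authors deposited 1 matrix of raw UMI counts (15661 barcodes, 24837 genes, 101300889 UMIs; counts per gene and barcode, per the file headers). Library totals ran from 1305838 to 26207554 UMIs per barcode set. The 7 barcode suffixes cannot be tied to the 10 labelled samples; 21 barcode sequences occur in more than 1 set, none of them in Foxp2/Tle4 nuclei.

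The Foxp2/Tle4 nuclei, the gene lists and the marker lists were chosen with earlier results of these data known. UMIs were summed over each group and scaled to CPM; genes with a mean of both sides of at least 5 CPM and 20 UMIs in all, outside the rule, were compared, and 2-fold was the limit. Zero sums were set to 3 UMIs per group. Beyond the lists, genes were named by rule: a mean of at least 20 CPM, the same side in every barcode set with 20 nuclei on each side, then the 12 highest and 8 lowest ratios after adding 5 CPM. For the leading cluster the listed genes given were picked after their values were seen. Clustering (30 principal components of 2000 variable genes, 15 neighbours, Leiden resolution 1; scanpy 1.11.5, leidenalg 0.10.2) and the comparisons based on it were added after the data were seen. Scrublet was run within each barcode set. Intervals are exact and cover counting error only. The ratio and its interval were run on simulated Poisson counts, the model that the interval assumes. That run checks the calculation only and holds no variation between nuclei or barcode sets. Gene positions came from GENCODE M21 (24797 gene IDs matched).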

Additional observations from a re-analysis of the deposited data

How the results depend on the processing

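All nuclei were 1 sample, so barcode sets were left out 1 at a time. The sets are not replicates, and leaving them out gives no replicate check. No paired analysis was possible because the labels give 1 group and no barcode set is tied to a sample. Only sets 1 to 4, which held at least 20 Foxp2/Tle4 nuclei each, were left out in turn, and sets 5 to 7 never were. The genes higher and lower then ran from 320 to 436 and 271 to 395 against other excitatory nuclei, and 521 to 822 and 466 to 689 against Cux2/Rorb nuclei. They ran from 367 to 526 and 426 to 457 against Fn1/Nts/Tshz2 nuclei, and 470 to 631 and 995 to 1441 for the Dpp10/Rai14 cluster.

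Counts that moved by over 1.5 times follow, and the cause was not tested. Against other excitatory nuclei the higher and lower genes were 735 and 1153 with Fezf2-positive nuclei only, 681 and 839 thinned, 831 and 87 unscaled, 148 and 97 above 20 CPM, and 1460 and 811 with no CPM floor. Lower genes were 491 with at least 6 UMIs of Foxp2 and Tle4 and 1134 with the Dpp10/Rai14 nuclei only, and higher genes 561 with the nuclei outside it. Against Cux2/Rorb nuclei they were 1458 and 223 unscaled and 218 and 373 above 20 CPM, with 294 higher for Fezf2-positive nuclei, 358 higher for Dpp10/Rai14 nuclei and 273 lower thinned. Against Fn1/Nts/Tshz2 nuclei they were 812 and 1241 with Fezf2, 1440 and 132 unscaled, 167 and 140 above 20 CPM and 631 and 812 with no floor, with 927 lower thinned, 970 lower for Dpp10/Rai14 nuclei and 826 higher for those outside. For the Dpp10/Rai14 cluster they were 917 and 747 unscaled, 269 and 454 above 20 CPM and 2369 and 1873 with no floor, with 1673 higher with Fezf2 and 981 higher thinned. The share of gate nuclei was 2.83% at 3 UMIs, 1.55% at 6, 3.29% in nuclei of 5000 UMIs or more and 0.481% thinned, and the share in the leading cluster 44.9% at resolution 2.

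Directions that turned: with Fezf2-positive nuclei, Cntnap5c 1.25, Fosl2 1.43, Htr1b 0.695, Htr2a 0.429 and Pappa2 0.328 against other excitatory nuclei, and Chrm2 0.870, Pappa2 0.910 and an immediate early median log2 of 0.10 in the Dpp10/Rai14 comparison. With Dpp10/Rai14 nuclei only, Nxph1 was 0.114 and Tac1 0.370 against other excitatory nuclei, Prr5l 0.125, D7Ertd443e 0.752, Pkp2 0.878 and Syt17 0.658 against Cux2/Rorb nuclei, and Tns3 0.102, Itpr2 0.211 and Stxbp6 0.459 against Fn1/Nts/Tshz2 nuclei. With those outside it, Hs3st4 was 0.797, Htr1b 0.414, Htr1f 0.552, Pappa2 0.391 and Thsd7b 0.920, and the layer 6 corticothalamic median against Cux2/Rorb nuclei -0.25. The median log2 ratio of FOXP2 targets against other excitatory nuclei was 0.081 unscaled and 0.0846 with the nuclei outside the cluster. Meis2 ran from 0.673 (without barcode set 2) to 3.16 with 1 set left out, and Svil 0.653 as a median over sets. Medians over sets could not be had for Cux2/Rorb nuclei.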
